A study of Mus musculus with 6 samples.

Results

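The classical histone deacetylases were followed in mouse oocytes that had matured in vitro with or without quercetin. They were taken by gene symbol: *Hdac1*, *Hdac2*, *Hdac3* and *Hdac8* (class I), *Hdac4*, *Hdac5* and *Hdac7* (class IIa), *Hdac6* and *Hdac10* (class IIb), and *Hdac11* (class IV). All 10 were found among the 53465 genes of the count table, and the rule used the symbol alone. A further class IIa gene, *Hdac9*, is not among the 10 and is given only beside the class IIa members and their total.

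The study asked how the flavonoid quercetin alters gene expression in oocytes of aged mice. Kunming (KM) females of 9-10 months, aged naturally and with no engineered allele named, supplied fully grown oocytes after priming with pregnant mare serum gonadotropin. Cumulus cells were removed by pipetting, and the oocytes matured for 16 h in M16 medium to the MII stage, the arrest at which an egg is normally ovulated. The medium held no quercetin for the 3 control pools and 10 μM quercetin, added from a DMSO stock, for the 3 quercetin pools. Each pool joined 15 oocytes from 3 mice, so the spread between individual oocytes or animals was not measured, and oocytes from young mice were not sequenced. All oocytes had reached MII, and those that failed to mature entered neither group.

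Histone deacetylases remove acetyl groups from lysines of histones and of other proteins, and histone acetylation generally goes with open, transcribed chromatin. Class I enzymes are mostly nuclear and work inside corepressor complexes, whereas class IIa enzymes move between nucleus and cytoplasm and have little catalytic activity of their own. Class IIb enzymes act largely on proteins outside the nucleus, and class IV has the single member *Hdac11*. Fully grown oocytes transcribe little, so their RNA is mainly a maternal store, and histones of mouse oocytes are widely deacetylated as meiosis resumes. The counts describe that RNA store and say nothing of enzyme protein or activity. In pooled oocytes, fewer cells that carry a transcript and less transcript per cell cannot be told apart.

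The 6 pools held 7880467 to 9938743 counts, and a floor of 3 counts was worth 0.302 to 0.381 CPM (reads scaled to a common library size). All 12 oocyte markers were detected and passed the filter on low counts, from *Dppa3* at a mean of 9609 CPM per kilobase of exon to *Nlrp5* at 55.4. Of 15 cumulus and granulosa markers, 4 (*Ptx3*, *Amh*, *Foxl2* and *Npr2*) were at 0 in every pool and 4 passed the filter. Their summed level was 85.3, 70.8 and 87.2 CPM in the control pools and 97.2, 97.4 and 92.3 CPM in the quercetin pools, and *Cyp19a1* made up 76.8 to 82.5% of it. On the first principal component (32.4% of the variance), quercetin pool 3 lay at -30.8 beside control pool 2 at -31.3, far from quercetin pools 1 and 2 at 37.9 and 30.9, so that axis did not part the groups.

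Class I holds the close paralogs *Hdac1* and *Hdac2*, which usually act in the same complexes, and the data turned on whether their reads could be told apart. The coding sequences of the pair were 75.3% identical over 1446 aligned bases, and the longest run of identical bases was 17. No 31-base stretch of *Hdac1* (ENSMUSG00000028800) occurred in *Hdac2* (ENSMUSG00000019777). The case was different for 2 processed pseudogenes, intronless copies of the *Hdac1* message elsewhere in the genome. *Gm10093* was 99.4% identical to the *Hdac1* coding sequence and held 34.8% of the 3498 distinct 31-base stretches of *Hdac1*, and *Gm4864* was 96.1% identical and held 10.5%. Those stretches come from all annotated *Hdac1* transcripts, with 3445 exon bases. *Gm10093* has only 1444 bases, all aligned to the coding sequence, so its share is higher within the coding sequence. Counting all genes, 40.0% of the *Hdac1* stretches also occurred elsewhere. The following 100 bases of coding sequence, from exons 3 and 4 of *Hdac1* and *Hdac2*, are shown because they contain the longest shared run of the pair. They were read 5′ to 3′ on the coding strand from the GRCm38 sequence with GENCODE release M21, and capitals mark bases that differ from *Hdac1*. The genomic spans are chr4:129524303-129529008 (minus strand) for *Hdac1*, chr10:36986343-36988097 (plus) for *Hdac2*, chr17:78491780-78491879 (plus) for *Gm10093* and chr12:77624712-77624811 (minus) for *Gm4864*.
Hdac1: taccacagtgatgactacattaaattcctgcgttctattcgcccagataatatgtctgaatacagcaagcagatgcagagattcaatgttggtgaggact
Hdac2: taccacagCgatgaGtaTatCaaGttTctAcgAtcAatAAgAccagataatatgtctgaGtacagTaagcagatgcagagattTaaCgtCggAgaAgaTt
Gm10093: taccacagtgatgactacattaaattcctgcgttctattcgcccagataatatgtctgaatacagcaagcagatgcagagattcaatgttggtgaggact
Gm4864: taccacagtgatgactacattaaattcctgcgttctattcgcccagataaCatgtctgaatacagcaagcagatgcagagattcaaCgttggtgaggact
*Hdac2* differed from *Hdac1* at 20 of these 100 bases, *Gm4864* at 2 and *Gm10093* at 0. A read from this stretch therefore separates the paralogs, but it cannot separate *Hdac1* from *Gm10093*.

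*Hdac2* had the highest level of the 10 genes. It encodes a class I enzyme of the Sin3, NuRD and CoREST complexes, and lies on chromosome 10 (36974544 to 37001889, plus strand). The control pools held 423, 348 and 427 reads and the quercetin pools 375, 396 and 398. These were 47.5, 41.8 and 48.0 CPM against 47.0, 43.4 and 46.8 CPM after TMM scaling of the libraries. The highest pool was only 1.15 times the lowest and the groups overlapped. The coefficient of variation over the 6 pools was 5.49%, beside 5.03% from read counting alone. Levels averaged 45.8 ± 3.43 CPM in control and 45.75 ± 2.01 CPM in quercetin oocytes (SD, n = 3 each). The log2 fold change, quercetin over control, was -0.0011 ± 0.16 (SE) by edgeR's quasi-likelihood test, with an adjusted p of 1.00. Its 95% interval ran from a 0.774-fold to a 1.29-fold level, so a 2-fold change in either direction lay outside the interval. The sign of so small a value turned with the scaling.

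*Hdac1* had few reads. The gene, on chromosome 4 (129516104 to 129542713, minus strand), was counted 12, 17 and 12 times in the control pools and 14, 16 and 7 times in the quercetin pools. Quercetin pool 3 was lowest, the other 5 pools held 12 to 17 reads, and the groups overlapped. The coefficient of variation of 28.5% was near the 27.7% that counting gives at this depth. *Hdac1* averaged 1.58 ± 0.402 CPM in control and 1.44 ± 0.537 CPM in quercetin oocytes (SD, n = 3). The log2 fold change was -0.12 ± 0.44 (SE, 95% interval -1.13 to 0.88, edgeR adjusted p = 0.996), and at this depth the interval includes a 2-fold decrease. Without control pool 2 it was 0.10, and without quercetin pool 3 it was 0.16.

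The excess of *Hdac2* over *Hdac1* held in every pool. *Hdac2* took 95.3% of the reads of the pair in control pool 2, the lowest pool (exact Clopper-Pearson 95% interval 92.6 to 97.3%), and 98.3% in quercetin pool 3, the highest (96.5 to 99.3%). Per kilobase of exon, and without the pseudogene reads, *Hdac2* stood 15.8 to 43.8 times above *Hdac1*. The average was 23.4 ± 6.65 times in control and 27.8 ± 13.8 times in quercetin pools (SD, n = 3). These intervals cover counting error only.

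The pseudogenes were counted as separate genes. *Gm10093* (chromosome 17, 78491582 to 78493025, plus strand) had 23, 18 and 22 reads without quercetin and 8, 8 and 24 with it. It therefore had more reads than *Hdac1* itself in each control pool, fewer in quercetin pools 1 and 2, and more again in quercetin pool 3. Its log2 fold change was -0.62 ± 0.49 (SE, edgeR adjusted p = 0.988). *Gm4864* (chromosome 12, 77623549 to 77625009, minus strand) had 2 to 6 reads and was not tested. How reads that match both *Hdac1* and a pseudogene were assigned is not given in the sources used here, so an *Hdac1* read placed on *Gm10093* cannot be told apart from transcription of the pseudogene. If all pseudogene reads were given to *Hdac1*, its counts became 38, 37 and 40 in control and 24, 26 and 37 in quercetin pools, which met at 37. The log2 fold change was then -0.37 (edgeR adjusted p = 0.988). The *Hdac2* share of the pair fell to 90.4 to 94.0%. Per kilobase of exon, *Hdac2* was then only 7.24 to 12.0 times above *Hdac1*. That ratio averaged 8.01 ± 0.689 in control and 10.7 ± 2.08 in quercetin pools (SD, n = 3). *Hdac2* thus remained the more abundant of the pair under both ways of counting, but the size of its excess depended on the counting. Any reads left uncounted because they match both places enter neither way.

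**Figure D1:**
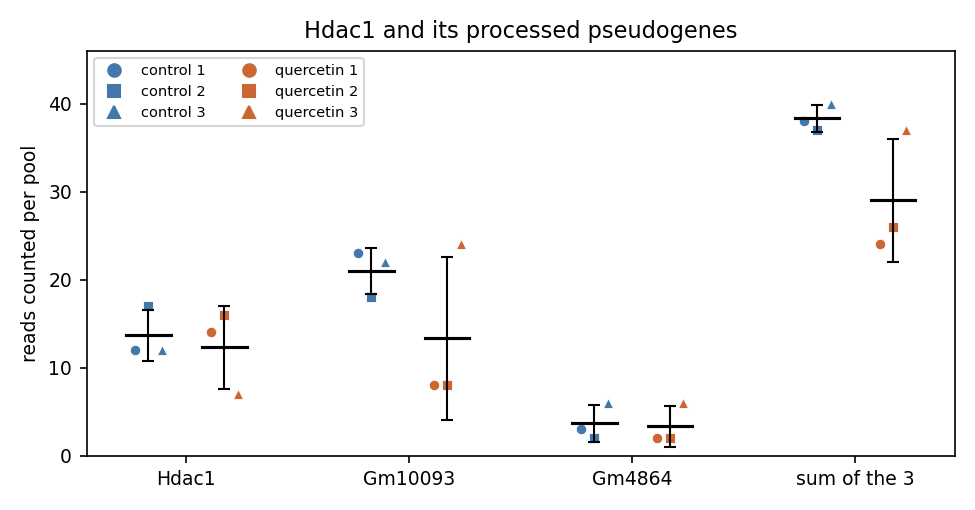
Reads counted per pool (vertical axis) for Hdac1, its processed pseudogenes Gm10093 and Gm4864, and their sum, by gene and group. Points are pools (blue control, orange quercetin), bars are the mean and whiskers the SD of 3 pools. Gm10093 had 18 to 23 reads in each control pool, against 8, 8 and 24 with quercetin.

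*Hdac8* was the only member whose groups did not overlap. It encodes a class I enzyme that works outside the large corepressor complexes and deacetylates cohesin, the ring that holds sister chromatids together. The gene (ENSMUSG00000067567) lies on chromosome X (102284639 to 102505359, minus strand) and shared none of its 31-base stretches with another gene. Control pools held 171, 138 and 132 reads and quercetin pools 188, 210 and 184. On the TMM scale these were 19.2, 16.6 and 14.9 CPM against 23.6, 23.0 and 21.7 CPM, so each quercetin pool lay above each control pool. The same held when libraries were scaled by their total alone, with 19.7, 17.5 and 14.8 CPM against 22.2, 21.1 and 22.7 CPM.

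The difference in *Hdac8* did not pass the test. Means were 16.9 ± 2.18 and 22.7 ± 0.979 CPM (SD, n = 3), a ratio of 1.35 with a 95% interval of 0.991 to 1.83. The log2 fold change was 0.43 ± 0.20 (SE, edgeR p = 0.0560, adjusted p = 0.988), and the two-sided exact permutation test gave p = 0.1, the smallest value it can reach with 3 pools against 3. Leaving out each pool in turn gave 0.36 to 0.54, with 0.47 in the absence of quercetin pool 3. Among all 11842 tested genes, 5.42% had every quercetin pool above every control pool and 5.17% every quercetin pool below, which sets the background for 1 such gene among the 6 members tested. The summed cumulus and granulosa markers also lay higher in each quercetin pool than in each control pool, although the groups overlapped once *Cyp19a1* was left out (12.4 to 19.7 CPM in control, 19.2 to 22.3 CPM in quercetin). The part of other cells in the *Hdac8* values was not tested.

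*Hdac3* varied more between pools than between groups. It is the catalytic subunit of the NCoR-SMRT corepressors, and the gene (ENSMUSG00000024454) lies on chromosome 18 (37935844 to 37955016, minus strand). Control pools held 66, 34 and 73 reads and the quercetin pools 96, 76 and 38. These were 7.41, 4.09 and 8.21 CPM against 12.0, 8.34 and 4.47 CPM. Control pool 2 and quercetin pool 3, the pair that stood together on the first principal component, were the lowest of the 6. The coefficient of variation was 39.3% where counting gives 12.5%. Means were 6.57 ± 2.19 and 8.28 ± 3.78 CPM (SD, n = 3), with a log2 fold change of 0.33 ± 0.40 (SE, 95% interval -0.58 to 1.24, edgeR adjusted p = 0.988). It was -0.035 without quercetin pool 1 and 0.63 without quercetin pool 3.

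Of the class IIa genes among the 10, only *Hdac4* was detected. This enzyme binds MEF2 transcription factors and is held in the cytoplasm by 14-3-3 proteins when phosphorylated. The gene (ENSMUSG00000026313) lies on chromosome 1 (91928779 to 92195699, minus strand), and 22.4% of its exon bases overlap *Gm26720* on the opposite strand, from which unstranded reads could not be told apart. It was counted 84, 81 and 58 times without quercetin and 80, 71 and 49 times with it, or 9.43, 9.74 and 6.53 CPM against 10.0, 7.79 and 5.77 CPM. Pool 3 was the lowest of each group, and the groups overlapped. Means were 8.56 ± 1.77 and 7.86 ± 2.13 CPM (SD, n = 3), with a log2 fold change of -0.12 ± 0.29 (SE, 95% interval -0.78 to 0.54, edgeR adjusted p = 0.993). Without quercetin pool 3 it was 0.057.

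The other class IIa members were not detected. *Hdac5* (ENSMUSG00000008855, chromosome 11, 102194432 to 102230166, minus strand) and *Hdac7* (ENSMUSG00000022475, chromosome 15, 97792664 to 97844502, minus strand) had 0 reads in all 6 pools. A count of 0 allows up to 3 reads in a pool. Per kilobase of exon that limit was 0.0344 to 0.0434 CPM for *Hdac5* and 0.0447 to 0.0564 CPM for *Hdac7*. *Hdac2* in its lowest pool was at least 216-fold higher per kilobase than *Hdac5* and at least 166-fold higher than *Hdac7*, taking the highest limit of any pool.

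*Hdac9*, the class IIa gene outside the 10, differed widely between pools. It was read 32, 38 and 182 times without quercetin and 34, 161 and 107 times with it, or 3.59 to 20.5 CPM. The highest pool was 5.70 times the lowest, and the coefficient of variation was 70.7% where counting gives 10.4%. Both groups held low and high pools, and the log2 fold change was 0.27 ± 0.68 (SE, edgeR adjusted p = 0.994). Per kilobase of exon, *Hdac9* averaged 0.718 ± 0.508 CPM over the 6 pools (SD), against 0.519 ± 0.113 for *Hdac4*. *Hdac9* lay above *Hdac4* in control pool 3 and quercetin pools 2 and 3, and below it in the other pools.

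In class IIb, *Hdac6* was low and *Hdac10* was not detected. *Hdac6*, which deacetylates tubulin in the cytoplasm and binds ubiquitin, lies on chromosome X (ENSMUSG00000031161, 7930120 to 7947889, minus strand). It was counted 28, 21 and 15 times without quercetin and 7, 10 and 26 times with it, or 3.14, 2.52 and 1.69 CPM against 0.877, 1.10 and 3.06 CPM. Quercetin pools 1 and 2 lay below all control pools, and quercetin pool 3 lay above control pools 2 and 3. Means were 2.45 ± 0.730 and 1.68 ± 1.20 CPM (SD, n = 3), with a coefficient of variation over all pools of 47.7% against 23.7% from counting. The log2 fold change was -0.54 ± 0.52 (SE, 95% interval -1.72 to 0.63, edgeR adjusted p = 0.988). Without quercetin pool 3 it was -1.29, with an edgeR adjusted p of 0.328. *Hdac10*, known as a polyamine deacetylase, is on chromosome 15 (ENSMUSG00000062906, 89123307 to 89128700, minus strand) and had 0 reads in every pool. The limit was 0.0893 to 0.113 CPM per kilobase, at least 83.0-fold under *Hdac2*.

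*Hdac11*, the class IV enzyme, which removes long-chain fatty acyl groups more readily than acetyl groups, was at the edge of detection. The gene is on chromosome 6 (ENSMUSG00000034245, 91156665 to 91174692, plus strand). It had 2 reads in control pool 2, 2 in quercetin pool 3 and 0 in the other 4 pools. Both counts were under the floor of 3, and 17.9% of its exon bases overlap *Gm14573* and *Gm44002* on the opposite strand. That floor was worth 0.0784 to 0.0989 CPM per kilobase, and *Hdac2* in its lowest pool was 94.5-fold above its highest value. It is no upper limit for control pool 2 and quercetin pool 3, where reads were counted. No fold change was computed.

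Because longer transcripts collect more reads, levels of different genes were set side by side as TMM-scaled CPM per kilobase of annotated exon. Over the 6 pools *Hdac2* averaged 10.2 ± 0.562 (SD, range 9.35 to 10.7), *Hdac8* 4.09 ± 0.734 (3.07 to 4.87) and *Hdac3* 1.83 ± 0.719 (1.01 to 2.97). These 3 ranges did not touch, so the order *Hdac2*, *Hdac8*, *Hdac3* held in each pool. *Hdac4* followed at 0.519 ± 0.113, *Hdac1* at 0.439 ± 0.125 and *Hdac6* at 0.355 ± 0.169. The ranges of the last 3 overlapped, and *Hdac4* was above *Hdac1* in 5 of 6 pools and *Hdac1* above *Hdac6* in 4 of 6. *Hdac11* averaged 0.0206, and *Hdac5*, *Hdac7* and *Hdac10* were at 0. With the longest annotated transcript as the length, the order of means was the same, but the ranges of *Hdac3* and *Hdac4* met. *Hdac3* was then above *Hdac4* in 5 of 6 pools, *Hdac4* above *Hdac1* in all 6 and *Hdac1* above *Hdac6* in 5. In CPM without length scaling, *Hdac4* had a higher mean than *Hdac3* (above it in 3 of 6 pools) and *Hdac6* a higher mean than *Hdac1* (in 4 of 6). The place of *Hdac1* in all these orders rests on the reads counted on *Hdac1* alone. With all pseudogene reads given to it (24 to 40 per pool), it would lie above *Hdac4* per kilobase of exon. In control pool 2 and quercetin pool 3, with 37 reads each, it would also lie above *Hdac3*, and in the other pools below it.

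**Figure D2:**
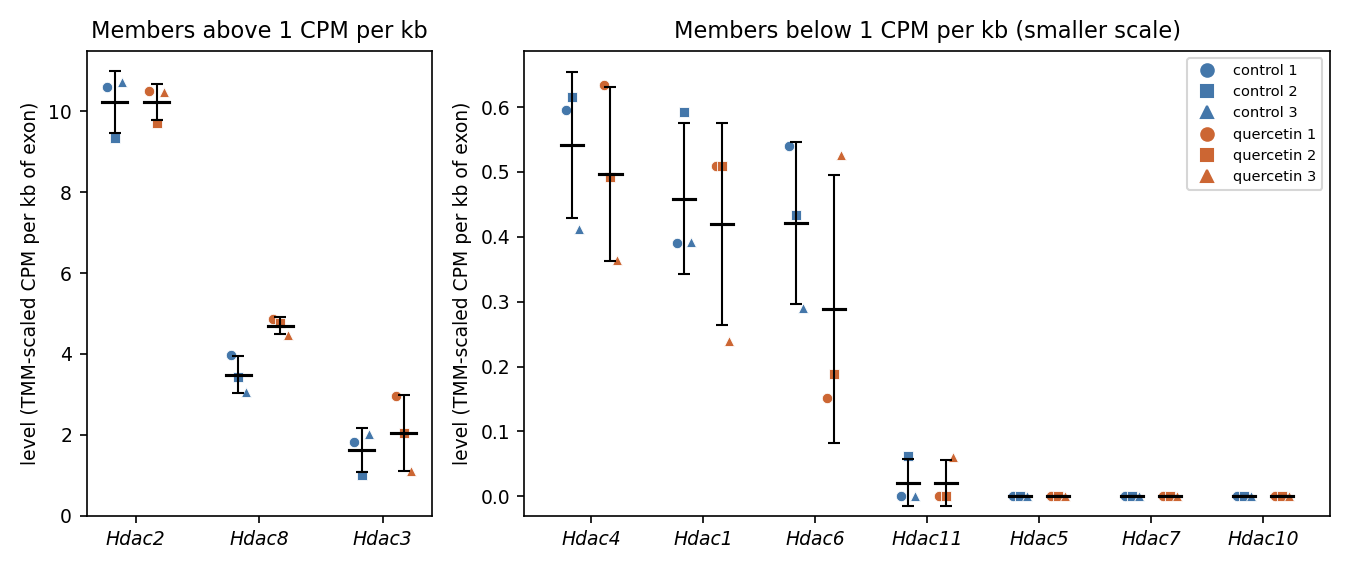
Level of each member in TMM-scaled CPM per kilobase of exon (vertical axis, linear), with the 3 members above 1 CPM per kilobase on the left and the other 7 on a smaller scale on the right. Points are pools (blue control, orange quercetin), bars are the mean and whiskers the SD of 3 pools; Hdac2 lay at 9.35 to 10.7 in all pools, Hdac8 was higher in each quercetin pool, and Hdac5, Hdac7 and Hdac10 were at 0.

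Measured as a share of the summed per-kilobase level of the 10 genes, class I held most of the family. Class I made up 94.1 ± 1.56% in control and 95.5 ± 0.927% in quercetin oocytes (SD, n = 3), with all pools between 92.8 and 96.2%. Class IIa made up 3.25 ± 0.771% and 2.71 ± 0.560%, class IIb 2.51 ± 0.697% and 1.63 ± 1.24%, and class IV 0.134 ± 0.233% and 0.118 ± 0.205%. The quercetin-minus-control differences were 1.44 percentage points for class I, -0.54 for class IIa and -0.88 for class IIb, and the groups overlapped in every class. As shares of CPM without length scaling, class I was at 86.4% in control and 89.1% in quercetin oocytes and class IIa at 10.5% and 8.87%. With *Hdac9* counted, class IIa made up 6.79 ± 2.74% in control and 6.79 ± 2.16% in quercetin oocytes, and class I was at 90.6% and 91.5%. The summed level itself was 16.8 ± 1.22 CPM per kilobase in control and 18.2 ± 1.26 in quercetin pools, again with overlap.

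Within class I the balance of *Hdac2* and *Hdac8* differed between pools. *Hdac2* was 53.5 to 63.4% of the family total, *Hdac8* 18.1 to 26.9%, *Hdac3* 6.40 to 15.1% and *Hdac1*, without its pseudogene reads, 1.39 to 3.83%. The per-kilobase ratio of *Hdac2* to *Hdac8* was 2.68, 2.73 and 3.50 without quercetin and 2.16, 2.04 and 2.34 with it. This ratio was lower in each quercetin pool (2.18 ± 0.151 against 2.97 ± 0.461, SD, n = 3). It was picked after the values were seen and is given as a description, with no test.

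**Figure D3:**
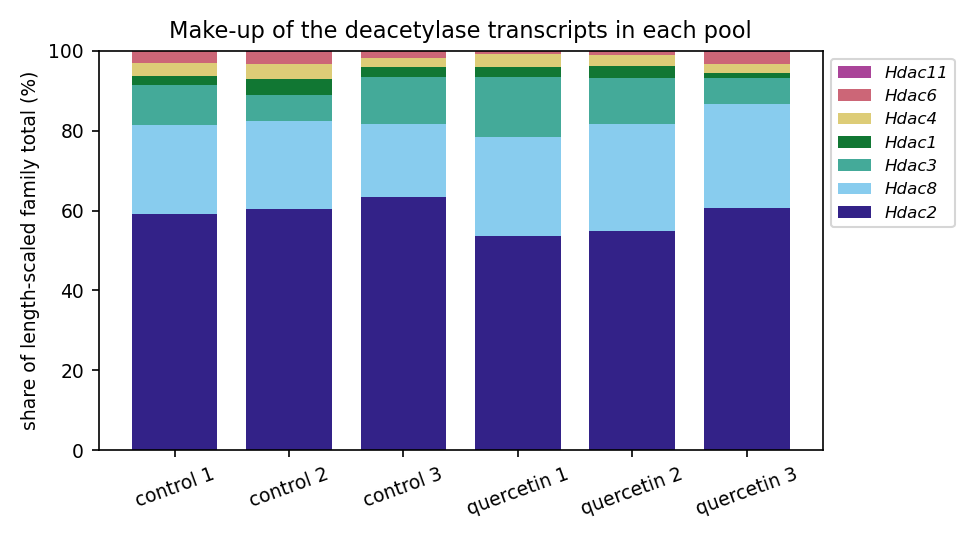
Share of each member in the summed CPM per kilobase of the 10 genes (vertical axis, percent), with a stacked bar for each pool. Hdac2 filled 53.5 to 63.4% of every bar and Hdac8 18.1 to 26.9%, while the segments above Hdac3 were thin in all pools.

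By group, no member was called at an adjusted p under 0.05 with a fold change over 2. Among all 11842 tested genes the same criteria called 0 (0%), with a smallest adjusted p of 0.0730. At an unadjusted p under 0.05, 477 genes passed (4.03%, 253 higher, 224 lower) and none of the 6 tested members did. DESeq2 called 12 genes, none of them a member. Of the tested members 4 had a log2 fold change below 0 and 2 above, with a median of -0.063, beside a median of -0.026 over all tested genes, of which 53.6% were below 0. The remaining 4 members, which had too few reads to be tested, included the 3 at 0. Of 21942 protein-coding genes in the table, 28.2% were likewise at 0 in every pool and 44.9% were tested.

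**Figure D4:**
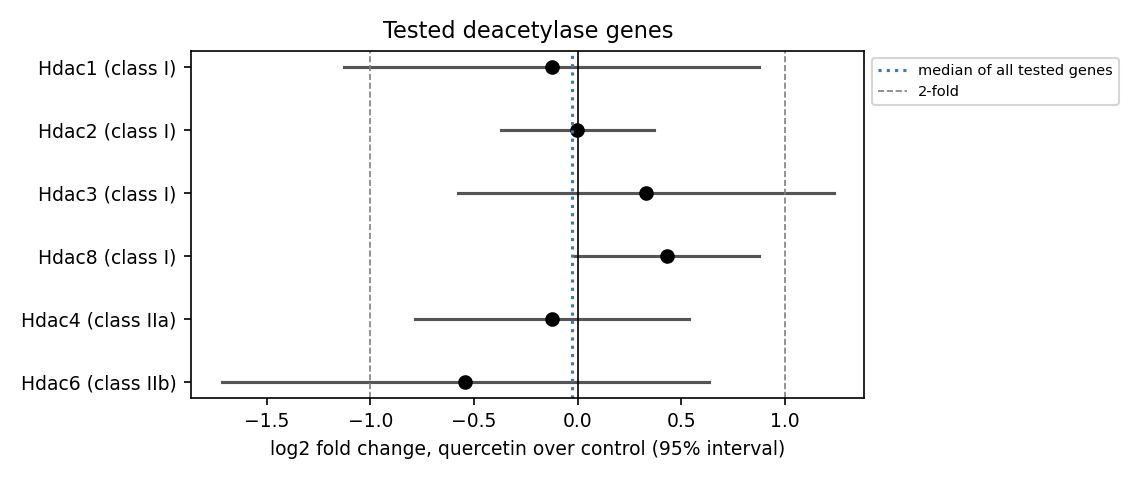
Log2 fold change of the 6 tested members, quercetin over control (horizontal axis), with the 95% interval from the edgeR fit; dashed lines mark 2-fold and the dotted line the median of all tested genes. Every interval spans 0, that of Hdac8 only just (-0.01 to 0.87), and those of Hdac1, Hdac3 and Hdac6 extend past 2-fold on at least one side.

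The complexes that carry class I enzymes were read from the same fit. In the Sin3 complex, which joins *Hdac1* and *Hdac2* to histone-binding subunits, 15 of 16 listed genes were found and tested. None was called, 2 were higher at an unadjusted p under 0.05 (background 4.03% of all tested genes in either direction), and 6 had a log2 fold change above 0 and 9 below (median -0.17). *Rbbp7*, a histone chaperone that NuRD also uses, was the most abundant gene of the list per kilobase, and stood at 4506 ± 466 CPM in control and 5694 ± 434 CPM in quercetin oocytes (SD, n = 3). Its log2 fold change was 0.34 ± 0.14 (SE, edgeR adjusted p = 0.988), and 16.5% of its 31-base stretches also occur in *Gm6382* or *Txlng*. *Suds3*, a subunit that helps to assemble the complex, had 207, 106 and 122 reads in control and 257, 217 and 204 in quercetin pools, with a log2 fold change of 0.69 ± 0.28 (SE, edgeR adjusted p = 0.988). Neither gene had a quercetin pool at or below a control pool on the TMM scale, a pattern that 5.42% of all tested genes shared. For *Suds3* the gap was narrow, with 23.2 CPM in control pool 1 and 23.8 CPM in quercetin pool 2. With libraries scaled by their totals alone, that control pool would lie above that quercetin pool.

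The other complexes showed no call either. For NuRD, which couples *Hdac1* and *Hdac2* to a chromatin remodeller, the list leaves out *Rbbp4* and *Rbbp7*, which were counted with Sin3. Of the 10 listed genes 6 were tested (4 above 0, 2 below, median log2 fold change 0.051). The most abundant of these 10 per kilobase, *Gatad2a*, was at 0.08. In CoREST, which adds the demethylase *Kdm1a*, 8 of 9 were tested (4 above, 4 below, median -0.0069). Its scaffold *Rcor1* was most abundant and varied 3.51-fold between pools, with a log2 fold change of 0.38. In NCoR-SMRT, the partner of *Hdac3*, 5 of 6 were tested (2 above, 3 below, median -0.31). *Gps2*, a core subunit there, had 240, 242 and 209 reads in control and 145, 147 and 155 in quercetin pools. It was the only gene of this list with an unadjusted p under 0.05. Its quercetin pools were all lower on the CPM scale, as in 5.17% of all tested genes, with a log2 fold change of -0.60 ± 0.19 (SE, edgeR adjusted p = 0.988), and 7.22% of its 31-base stretches occur in *Gm5221*. In MiDAC, a mitotic deacetylase complex, 1 of 3 genes was tested, its scaffold *Elmsan1* at -0.46 (named after its value was seen), and *Dnttip1*, the most abundant per kilobase, had only 7 to 13 reads.

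Enzymes and proteins that set or read the acetyl mark were likewise not called. Of 15 lysine acetyltransferases 14 were tested, with 5 above 0 and 9 below (median log2 fold change -0.11). The most abundant per kilobase was *Hat1*, which acetylates newly made histone H4, at 0.20. All 16 acetyl-lysine readers were tested, with 6 above 0 and 10 below (median -0.18), led by the germ-line bromodomain gene *Brdt* at 0.25. Of 11 partners of class IIa enzymes (MEF2 factors and 14-3-3 proteins) 9 were tested, with 5 above 0 and 4 below (median 0.0018), led by *Ywhae* at 0.20. None of these 3 lists held a gene with an unadjusted p under 0.05.

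Among the markers of cell type, the 12 oocyte genes had 7 log2 fold changes above 0 and 5 below (median 0.10). *Ooep*, a component of the subcortical maternal complex, was at -0.92 ± 0.38 (SE, edgeR adjusted p = 0.988), and was the only one of these 12 with an unadjusted p under 0.05. Of the 4 cumulus and granulosa genes tested, *Kitl*, *Cyp19a1* and *Has2* were above 0 and *Ptgs2* below (median 0.13). *Kitl*, the ligand that granulosa cells send to the oocyte, had 71, 64 and 77 reads in control and 95, 112 and 106 in quercetin pools, at 0.59 ± 0.21 (SE, edgeR adjusted p = 0.988). It alone of the 4 had an unadjusted p under 0.05, and no marker was called.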

How the data were processed

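The authors deposited raw counts of reads for 53465 Ensembl genes and 6 pools, not normalized. Libraries were made with a Smart-seq HT kit and sequenced on an Illumina NovaSeq. The study's methods name Hisat2 and GRCm38.91, whereas the submitters' processing notes list TopHat2 2.0.6, CASAVA 1.8, mm10 and GRCm38. The counting program, its strand setting and its treatment of reads that match several genes are not given in the sources used here. Totals were 7880467 to 9938743 counts per pool.

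Groups and replicate numbers came from the sample labels. Whether pools of the same number came from the same mice or day is not stated, nor whether the culture runs were separate, so p-values measure the spread between these pools. Of 24476 genes with counts, 11842 passed filterByExpr (minimum count 10). The pools were compared by edgeR 4.0.16 (TMM scaling, glmQLFit and glmQLFTest, all 6 pools, no covariate, R 4.3.3) and p-values were adjusted by Benjamini-Hochberg across the tested genes. A call needed a fold change over 2 and an adjusted p under 0.05, as in the study. At these criteria the study, which does not name its test, reported both up- and down-regulated genes, whereas the edgeR fit called 0. An exact two-sided permutation test of log2 CPM (prior count 2) was run for single genes. Lengths, coordinates and sequences came from GENCODE release M21 (GRCm38), which matched 53360 identifiers, and sequence sharing was the share of distinct 31-base stretches of a gene's transcripts found in other genes (Python 3.11.15, Biopython 1.88). The Clopper-Pearson intervals of read shares and the floor of 3 counts cover counting error only. The intervals of fold changes come from the edgeR fit and also include the spread between pools.

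The members and the lists of complexes, acetyltransferases, readers, partners and markers were chosen with earlier results of these data known. All 10 members are named. From each other list the gene with the highest level per kilobase was named, with up to 3 at an unadjusted p under 0.05, and from the markers the highest and lowest. Alternatives were DESeq2 1.42.0, other scalings, filters and lengths, unadjusted p, each pool left out, and the replicate number as a block.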

Additional observations from a re-analysis of the deposited data

How the results depend on the processing

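None of the 6 tested members was called under the alternatives that gave it an adjusted p, and DESeq2 gave none for *Hdac1* and *Hdac6*. For all genes, where the reported fit called 0, DESeq2 called 12, the fit without a filter 3, an unadjusted p under 0.05 with a fold over 2 called 103 (31 higher, 72 lower), and leaving out a pool 0 to 7; DESeq2's size factors in edgeR, library size alone, at least 10 counts in every pool and the replicate block each called 0. *Hdac1*, *Hdac3*, *Hdac4*, *Hdac6* and *Hdac8* kept their direction under each alternative run on all 6 pools; *Hdac1* and *Hdac6* could not be fitted with at least 10 counts in every pool. The log2 fold change of *Hdac2* turned positive with DESeq2 (0.016), its size factors in edgeR (0.016), no filter (0.0080) and the replicate block (0.00088). Leaving out each pool gave -0.29 to 0.16 for *Hdac1*, -0.060 to 0.044 for *Hdac2*, -0.035 to 0.63 for *Hdac3*, -0.33 to 0.057 for *Hdac4*, -1.29 to -0.24 for *Hdac6* and 0.36 to 0.54 for *Hdac8*. Unadjusted edgeR p-values under 0.05 were those of *Hdac8* with DESeq2's size factors (0.0484, adjusted p = 0.989) and without control pool 1 (0.0465, adjusted p = 0.987), and of *Hdac6* without quercetin pool 3 (0.0255, adjusted p = 0.328). Adjusted p-values of *Hdac8* ran from 0.393 to 1.00 over its alternatives. The same-number pools correlated at r = 0.296, 0.101 and -0.0303 in their deviations from the group means. Their mean was 0.122, against -0.0612 for pools of different number, and not every pool correlated best with its own number. So few correlations cannot settle whether the pools were paired. The labels' numbers were not taken as pairs because the study does not call the pools paired.

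The mean ratio of *Hdac2* to *Hdac8* per kilobase was 2.57, and 1.66 with the longest transcript as the length. The class IIa difference of -0.54 percentage points was -1.61 without length scaling, and that of class I went from 1.44 to 2.64. Leaving out each pool gave class differences of 0.79 to 2.30 (class I), -0.94 to -0.17 (class IIa), -1.59 to -0.45 (class IIb) and -0.13 to 0.12 (class IV). Counting *Hdac9* in class IIa, and adding the pseudogene reads to *Hdac1*, were chosen after seeing the data. The causes of these shifts were not tested. *Hdac1*, *Hdac6* and *Hdac11* had at most 28 reads in a pool.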
